A study of Arabidopsis thaliana with 3 samples.

Results

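The starch, sugar and inositol genes of Arabidopsis thaliana were examined in whole seedlings of mutants that the series' title links to nuclear size. The genes were those whose description in either of the 2 deposited tables names starch, an amylase, sucrose synthase, sucrose phosphate, trehalose, invertase, inositol oxygenase, raffinose, galactinol, fumarase or beta glucosidase, with QQS (AT3G30720), FUM2 (AT5G50950) and MIOX4 (AT4G26260) added by identifier. The rule gave 51 of the 2666 genes in the authors' deposited tables, and all 3 of the added genes also matched by their description. The name was taken to hold for 27 of the 51. Of these, 7 are beta glucosidases, which it fits only loosely, because that family acts on glucosides of many kinds. The other 24 matched through a family name or a remark: 13 belong to the lipid-transfer family, whose domain name includes an amylase inhibitor, 8 to the pectin methylesterase and inhibitor family, which shares its domain name with an invertase inhibitor, and 3 are described with a remark on starch, invertase or beta glucosidase. These 24 are described separately, at the end. Descriptions of 60 genes listed for pwo1 and 99 listed for crwn1 crwn2 could not be read, and the rule could not reach those genes.

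The seedlings were pwo1, crwn1 crwn2 and Col-0, the wild type, harvested at 14 days after growth on vertical MS plates in long days, with seeds stratified for 2 days. The study states 3 biological replicates per genotype. PWO1 is a chromatin-associated PWWP-domain protein, and CRWN1 and CRWN2 are long coiled-coil components of the nuclear periphery. The sources used here do not name the alleles. The tables give each mutant against Col-0 by the log2 fold change and p-value of edgeR and those of Cuffdiff, with the same Col-0 libraries in both comparisons. No values per library accompany them, so the spread between replicates cannot be shown and the depth behind each value is unknown. A gene counts here as changed when the authors' deposited table lists it. A gene that is not listed has no value and is not shown to be unchanged.

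Leaf starch is built in the chloroplast by day from ADP-glucose and is broken down at night. Breakdown begins when phosphate groups are placed on the granule surface and removed again, which opens the granule to amylases and debranching enzymes, and the released maltose and glucose leave the chloroplast for sucrose synthesis in the cytosol. Invertases and sucrose synthases split sucrose in the tissues that consume it. Trehalose 6-phosphate, made by trehalose-phosphate synthases and removed by trehalose-phosphate phosphatases, signals sucrose status. Raffinose family sugars are made from galactinol, itself made from myo-inositol, and myo-inositol oxygenases open the inositol ring toward the precursors of cell wall sugars. Cytosolic fumarase makes fumarate, which leaves of Arabidopsis store by day as an alternative carbon pool beside starch.

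The upstream sequences of MIOX4 and QQS are shown because these genes had the largest fold change in either direction among the 51. Each line holds the 250 bases before the annotated gene start, 5′ to 3′ on the gene's strand, from RefSeq build TAIR10.1 at chr4:13297445-13297694 for MIOX4 and chr3:12348797-12349046 for QQS, both on the plus strand. The files hold no coordinates, and genes were matched to the reference by locus identifier. Capitals mark the motifs searched, read on either strand: TATCCA (known from sugar-regulated amylase promoters of rice), AAAATATCT (the evening element of clock-regulated promoters), ACGTGGC and the variant ACGTGTC (elements of abscisic acid response), GATAAG (the I-box of light-regulated promoters) and TGACG (a core bound by TGA factors). In MIOX4 they mark 3 copies of GATAAG, each read as CTTATC, and 1 of TATCCA, read as TGGATA. In QQS they mark 1 ACGTGGC whose first bases overlap 1 TGACG.
MIOX4: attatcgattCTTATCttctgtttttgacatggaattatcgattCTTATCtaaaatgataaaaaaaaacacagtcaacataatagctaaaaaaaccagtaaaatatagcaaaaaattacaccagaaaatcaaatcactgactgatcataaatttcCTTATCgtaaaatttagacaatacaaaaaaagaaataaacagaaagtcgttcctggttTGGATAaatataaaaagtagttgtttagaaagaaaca
QQS: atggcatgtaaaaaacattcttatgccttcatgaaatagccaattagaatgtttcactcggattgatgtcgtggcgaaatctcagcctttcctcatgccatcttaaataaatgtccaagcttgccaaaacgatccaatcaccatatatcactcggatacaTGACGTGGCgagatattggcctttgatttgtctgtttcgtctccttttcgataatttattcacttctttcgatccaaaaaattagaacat

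ACGTGGC, which contains the ACGT core recognised by bZIP factors, was in the upstream 250 bases of 7 of the 27 genes (25.9%) and of 926 of 27443 protein-coding genes (3.37%). Those 7 hold 8 copies, shown with 20 bases on either side, or fewer at the edge of the window, and with the motif in capitals. The copies lay 46 to 238 bases from the gene start, and 3 of the 8 overlap a TGACG. In MIOX1 the motif is on the other strand and reads GCCACGT.
MIOX1, chr1:4970481-4970527 (-): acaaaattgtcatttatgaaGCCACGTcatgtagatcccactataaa
AMY3 farther copy, chr1:26293232-26293278 (-): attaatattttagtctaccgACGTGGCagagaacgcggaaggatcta
AMY3 nearer copy, chr1:26293200-26293246 (-): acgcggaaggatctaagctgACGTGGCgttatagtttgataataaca
TPPE, chr2:9436712-9436758 (-): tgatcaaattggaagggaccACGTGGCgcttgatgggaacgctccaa
SBE2.1, chr2:15264063-15264109 (+): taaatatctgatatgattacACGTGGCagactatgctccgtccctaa
QQS, chr3:12348939-12348985 (+): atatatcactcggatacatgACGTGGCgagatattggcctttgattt
SIP2, chr3:21293204-21293250 (-): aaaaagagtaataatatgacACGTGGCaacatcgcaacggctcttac
TPPH, chr4:18451524-18451555 (-): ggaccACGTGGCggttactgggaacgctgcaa

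Apart from SIP2, which was higher in both mutants, each of these genes was lower in the mutant that lists it in the authors' deposited tables. Of the 27 genes, 20 were listed for crwn1 crwn2, 12 of them lower, and 11 for pwo1, 5 of them lower. TPPE and TPPH are 81.1% identical over 915 bases and may not be separate cases. Whether the motif goes with the direction was not tested. Over all 51 upstream sequences ACGTGGC was in 15.7%. Of the same 27 genes, TGACG was in 33.3% (25.5% of the 51), against 18.6% of all 27443, and TATCCA in 18.5% (17.6% of the 51), against 13.6%. ACGTGTC was in 7.41% of the 27 (3.92% of the 51), against 3.68% of all. GATAAG was in 3.7% of the 27 (5.88% of the 51), against 12.3% of all, and AAAATATCT in 0 of the 27 (1.96% of the 51), against 2.36%. None of these differences was tested. A match shows these letters in the window and not a bound site.

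Across all 51, the authors' deposited table for pwo1 lists 22 genes (43.1%), against 46.5% of the 2666 genes of either table, and that for crwn1 crwn2 lists 36 (70.6%), against 72.6%. These shares are near those of all genes and are no result about the set. In pwo1, 14 of the 22 were higher and 8 lower (36.4% lower), where 57.5% of all 1239 genes in the authors' deposited table were lower. In crwn1 crwn2, 18 of the 36 were higher and 18 lower (50%), where 43.5% of all 1935 were lower. A change of at least 2-fold was given for 13 of the 22 in pwo1 (59.1%, against 34.7% of all listed) and for 17 of the 36 in crwn1 crwn2 (47.2%, against 40.4%). The 27 starch, sugar and inositol genes proper include the beta glucosidases. The authors' deposited tables list 11 of the 27 for pwo1 (6 higher, 5 lower) and 20 for crwn1 crwn2 (8 higher, 12 lower). Of these, 5 of 11 (45.5%) and 8 of 20 (40%) changed at least 2-fold. Of the 24 matched by a family name or remark, 8 of 11 did in pwo1 (72.7%), 7 of them lipid-transfer genes. In crwn1 crwn2, 9 of 16 of those did (56.2%). Of the 51, the 7 in both tables were MIOX2, BGLU33, TMAC2, SIP2, FUM2, AT5G48490 and AT5G62350. Another 15 were listed for pwo1 and not for crwn1 crwn2, and 29 the other way round. With 1239 and 1935 of the 2666 genes listed, most genes of the series were likewise in a single table. This split is no result about the set. Differences between the mutants were not tested.

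**Figure D1:**
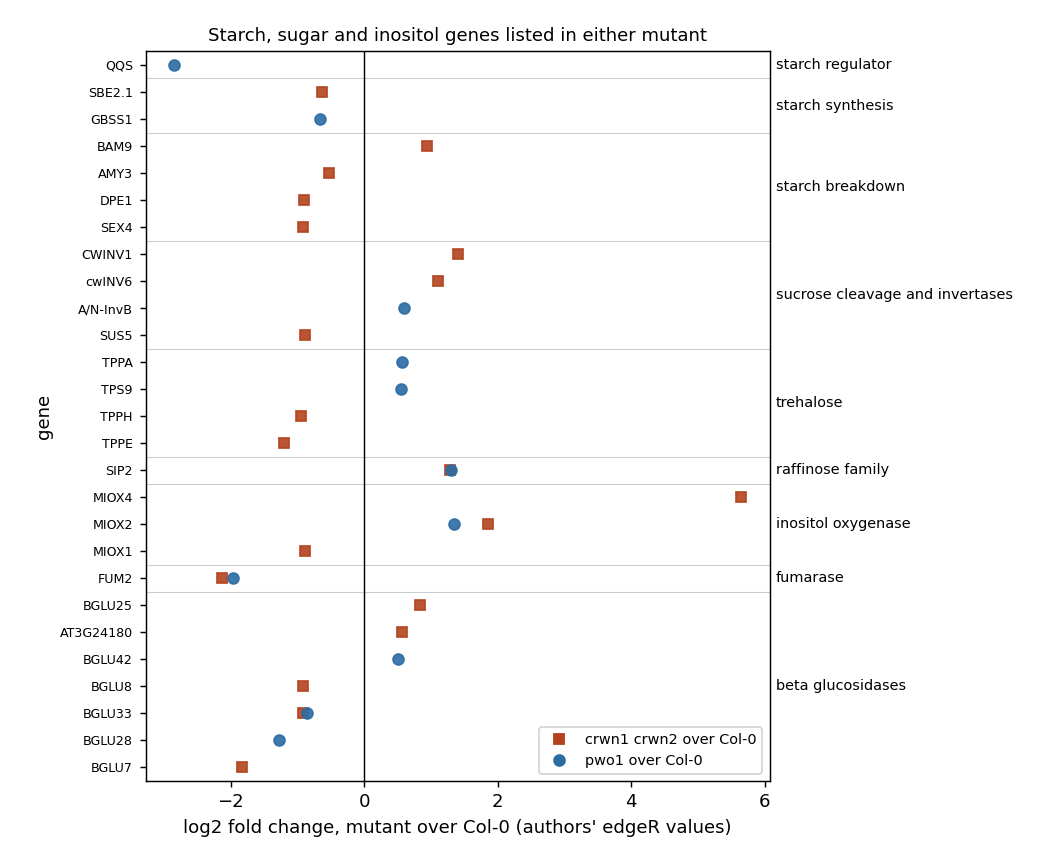
The plot gives the authors' edgeR log2 fold change, mutant over Col-0 (horizontal axis), for the 27 starch, sugar and inositol genes (rows, grouped by role), with squares for crwn1 crwn2 and circles for pwo1; a gene with no marker in a colour was not listed for that mutant. MIOX4 stands far to the right at 5.65 in crwn1 crwn2, QQS far to the left at -2.85 in pwo1, and FUM2 lies near -2 in both mutants.

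The mutated genes and organ markers bear on how the tables are read. In the authors' deposited crwn1 crwn2 table CRWN1 was lower at -3.03 on the log2 scale by edgeR, and CRWN2 was lower at -2.42 (-1.57 by Cuffdiff), which sets the direction of that table as mutant over Col-0. PWO1 is not listed for pwo1, so the direction there rests on a header of the same form. Of 5 leaf markers, the authors' deposited table lists 3 as lower in pwo1 (LHCB1.1 at -0.97, GLK1 at -0.76 and GLK2 at -0.75) and 1 in crwn1 crwn2 (GLK1 at -0.73). None of 10 root and none of 7 seed markers is listed for either. Of protein-coding genes, 4.38% are listed for pwo1 and 6.91% for crwn1 crwn2, and 57.5% and 43.5% of all listed genes were lower. With so few root and seed markers, having none listed is near these shares and is no result about those organs. The part of the markers in the results below was not tested. Levels are not in the tables, so the labelled tissue could not be checked by its markers, and fewer cells of a type cannot be told apart from less RNA per cell in whole seedlings.

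Most genes of starch breakdown that were listed for crwn1 crwn2 were lower there. A list of 24 genes of the pathway, wider than the rule, had 10 listed for crwn1 crwn2 in the authors' deposited table, of which 9 were lower and 1 higher; over the reference's 27562 protein-coding genes, 6.91% are listed and 2.99% are listed as lower. For crwn1 crwn2 the other 14 of the 24 have no value. For pwo1 the same list had 0 of 24 listed, where 4.38% of protein-coding genes are listed. With 24 genes that count is near the share of all genes and is no result about the list. The median log2 fold change of the 10 was -0.75, against 0.53 over all genes listed for crwn1 crwn2. None of the 10 reached 2-fold, and the list was drawn up with earlier results of these data known.

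The 9 lower genes act at places from the granule surface to the cytosol, and other genes of the pathway have no value. GWD1, the glucan water dikinase that places the first phosphate on the granule, stood at log2 -0.56 in the authors' deposited table (edgeR p = 0.000713), and PWD, which adds phosphate at another carbon of the glucose units, had -0.57 (p = 0.000266). SEX4, the phosphatase that removes these groups, was lower in crwn1 crwn2 by 1.89-fold in the authors' deposited table (log2 -0.92, edgeR p = 1.08e-07). AMY3, the chloroplast alpha-amylase, had -0.52 (p = 0.00304), the weakest p of the 10 in the authors' deposited table. So GWD1, PWD, SEX4 and AMY3 were on the lower side of Col-0 by less than 2-fold, while the phosphatases LSF1 and LSF2 were not listed.

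ISA3, the debranching enzyme that acts in breakdown, was lower at -0.79 (edgeR p = 9.49e-07) in the authors' deposited table. DPE1, the chloroplast disproportionating enzyme that recycles maltotriose, was lower by 1.86-fold (log2 -0.90, p = 1.76e-07) in the authors' deposited table. The phosphorylases PHS1, of the chloroplast, and PHS2, of the cytosol, were lower at -0.81 (p = 3.48e-06) and -0.75 (p = 3.81e-06) in the authors' deposited table. Both overlap another annotated gene. MEX1, the maltose exporter of the chloroplast envelope, had -0.74 (p = 6.27e-05) in the authors' deposited table, but it shares 409 bases at 99.5% identity with AT5G17523, and its value is uncertain for that reason.

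BAM9, a beta-amylase without known catalytic activity, was the exception: it was higher in crwn1 crwn2 at 0.94 (edgeR p = 3.46e-06) in the authors' deposited table. The catalytic and other beta-amylases BAM1 to BAM8, the phosphatases LSF1 and LSF2, AMY1, AMY2, LDA and DPE2 were not listed for either mutant. Among the 9 lower genes, AAAATATCT was in the 250 bases upstream of ISA3 and PWD (22.2%), against 2.36% of all protein-coding genes and 0 of the 14 pathway genes that were not listed. With 9 sequences that share is a count of 2 and is given as a description. ACGTGGC was in 22.2% of the 9 and in 14.3% of the 14, against 3.37% of all protein-coding genes. TGACG was in 33.3% of the 9 and 28.6% of the 14, and TATCCA in 11.1% and 7.14%. ACGTGTC and GATAAG were each in 11.1% of the 9 and 14.3% of the 14.

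**Figure D2:**
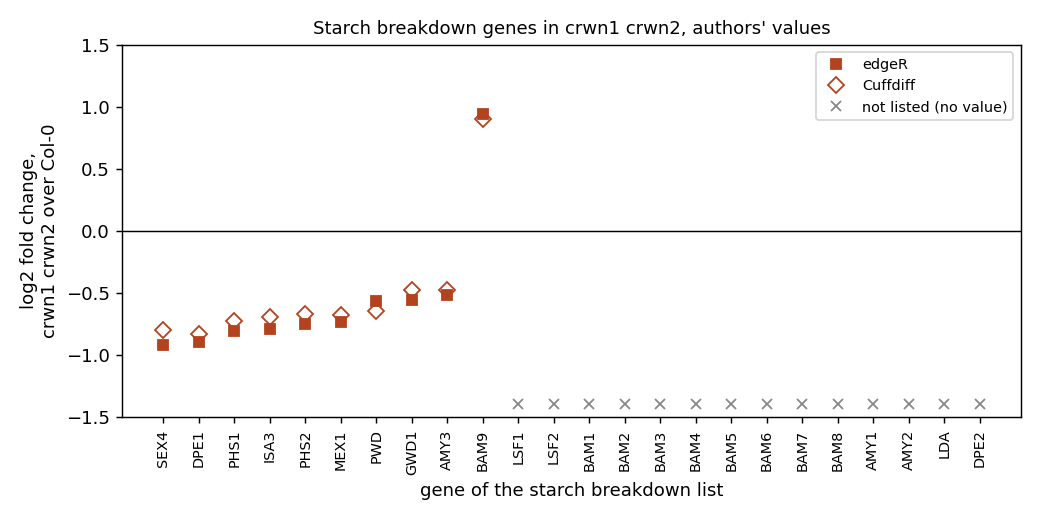
The plot gives log2 fold change, crwn1 crwn2 over Col-0 (vertical axis), for the 24 genes of the starch breakdown list (horizontal axis), with filled squares for the authors' edgeR values, open diamonds for their Cuffdiff values and crosses at the bottom for genes that were not listed and have no value. The 9 lower genes lie between -0.92 and -0.52 by edgeR, Cuffdiff gives each the same sign, and BAM9 lies at 0.94.

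Starch synthesis had 1 gene listed per mutant among 17 (5.88%), against 4.38% of protein-coding genes for pwo1 and 6.91% for crwn1 crwn2. These counts are near the shares of all genes and are no result about the list. GBSS1, the granule-bound starch synthase that makes amylose, was lower in pwo1 by 1.57-fold (log2 -0.66, edgeR p = 0.000336) in the authors' deposited table. SBE2.1, a starch branching enzyme, was lower in crwn1 crwn2 by 1.55-fold (log2 -0.63, p = 8.2e-05) in the authors' deposited table, and it overlaps a gene on the opposite strand. Neither gene is listed for the other mutant.

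QQS, an orphan gene of Arabidopsis whose reduced expression is known to raise leaf starch, was lower in pwo1 by 7.19-fold in the authors' deposited table (log2 -2.85 by edgeR, p = 1.15e-09, and -2.68 by Cuffdiff, p = 0.00015). That difference of 0.17 between the tools was the largest among the 22 genes listed for pwo1. QQS is not listed for crwn1 crwn2, so the decrease in pwo1 has no value to be set beside it. No other annotated gene overlaps it.

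FUM2, the cytosolic fumarase, was lower in both mutants. The authors' deposited tables give a log2 fold change of -1.96 in pwo1 (3.89-fold lower, edgeR p = 2.25e-10) and of -2.13 in crwn1 crwn2 (4.38-fold lower, p = 3.63e-09). By Cuffdiff the values in the authors' deposited tables were -1.96 in pwo1 and -1.95 in crwn1 crwn2. These 2 values share the Col-0 libraries and are not independent. FUM1, the mitochondrial fumarase, is 91.2% identical to FUM2 over 1437 bases and was not listed for either mutant.

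Myo-inositol oxygenases moved in different directions in crwn1 crwn2. MIOX4 was 50.4-fold higher in crwn1 crwn2 in the authors' deposited table (log2 5.65 by edgeR, p = 1.04e-18, and 5.80 by Cuffdiff), the largest change of the 51 genes. MIOX2 was higher in both mutants in the authors' deposited tables, at 1.34 in pwo1 (2.53-fold, p = 5.78e-05) and 1.85 in crwn1 crwn2 (3.60-fold, p = 5.21e-07). MIOX1 was lower in crwn1 crwn2 at -0.89 (p = 5.13e-05) in the authors' deposited table. Thus the 3 inositol oxygenases of the rule were split, with MIOX4 and MIOX2 up and MIOX1 down. MIOX4 is most like AT5G56640, at 83.3% over 838 bases, so no near-identical copy was found. Without values per library, a large fold such as that of MIOX4 cannot be tied to the level in Col-0 or in crwn1 crwn2.

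The wider list of 9 inositol genes added a change upstream of the oxygenases in pwo1. MIPS2, a myo-inositol phosphate synthase that makes the first intermediate of inositol synthesis, was lower in pwo1 by 2.16-fold (log2 -1.11, edgeR p = 5.25e-07) in the authors' deposited table. VTC4, the phosphatase that releases myo-inositol and also acts in ascorbate synthesis, was lower at -0.50 (p = 0.000413) in the authors' deposited table. In pwo1 the list had 3 of 9 listed (33.3%, against 4.38% of protein-coding genes). These were 2 genes of synthesis, lower, and MIOX2, which consumes inositol, higher, where 57.5% of all listed genes were lower. The other 6, among them the synthases MIPS1 and MIPS3, were not listed for pwo1, and a pattern over the pathway was not tested. MIPS2 overlaps other genes on the opposite strand, and neither synthesis gene is listed for crwn1 crwn2.

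Of the genes for sucrose cleavage, a cell wall and a cytosolic invertase were higher in crwn1 crwn2. CWINV1, the main cell wall invertase, was higher in crwn1 crwn2 by 2.63-fold (log2 1.40, edgeR p = 1.86e-10) in the authors' deposited table. Cytosolic CINV1, on the list of 15 invertase genes though not reached by the rule, had 0.53 (p = 0.00106) in the authors' deposited table. The family member cwINV6, which its description calls a fructan exohydrolase without invertase activity, was given as 2.14-fold higher (p = 0.00402) in the authors' deposited table. The invertase list thus had 3 of 15 listed for crwn1 crwn2 (20%, against 6.91% of protein-coding genes), all with positive values where 43.5% of all listed genes were lower, and 12 not listed. For pwo1 it had 0 of 15, against 4.38%. A further alkaline or neutral invertase, A/N-InvB (AT4G34860), which the list does not hold, had 0.59 in pwo1 (p = 0.00143) in the authors' deposited table.

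Of 12 genes of sucrose synthesis and cleavage by sucrose synthase, 2 were listed for crwn1 crwn2 (16.7%, against 6.91% of protein-coding genes) and 0 for pwo1 (against 4.38%). The sucrose-phosphate synthase SPSC was higher at 0.60 (edgeR p = 0.00105) in crwn1 crwn2 in the authors' deposited table. The phloem-associated sucrose synthase SUS5 had -0.88 (p = 0.00465) in the authors' deposited table, the largest p-value among the 36 genes.

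Of the trehalose genes, 2 were listed as higher in pwo1 and 2 others as lower in crwn1 crwn2. In pwo1 the authors' deposited table gives TPS9, a class II trehalose-phosphate synthase-like protein, 0.55 (edgeR p = 0.00112) and TPPA, a trehalose-phosphate phosphatase, 0.56 (p = 0.000317). In crwn1 crwn2 the phosphatases TPPE and TPPH were lower, at -1.20 (p = 4.69e-07) and -0.94 (p = 0.000112) in the authors' deposited table. The list of 22 trehalose genes thus had 2 listed per mutant (9.09%), against 4.38% of protein-coding genes for pwo1 and 6.91% for crwn1 crwn2. Of all listed genes, 57.5% were lower in pwo1 and 43.5% in crwn1 crwn2. With 2 genes per mutant, neither the count nor the direction is a result about the list. The difference between the mutants was not tested for these genes. TPPE and TPPH are 81.1% identical over 915 bases, and an ACGTGGC lies upstream of each.

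Raffinose catabolism had a gene that was higher in both mutants. SIP2, which encodes an alkaline alpha-galactosidase that splits raffinose, was higher by 2.47-fold in pwo1 (edgeR p = 3.33e-10) and by 2.42-fold in crwn1 crwn2 (p = 5.39e-08) in the authors' deposited tables. DIN10, named both dark inducible 10 and raffinose synthase 6 in the tables, was higher in pwo1 at 0.98 (p = 6.8e-10) in the authors' deposited table. The raffinose list of 11 thus had 2 listed for pwo1 (18.2%, against 4.38% of protein-coding genes) and 1 for crwn1 crwn2 (9.09%, against 6.91%). Its other genes were not listed for either mutant.

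Beta glucosidases, a family whose members cleave glucosides of defence, hormone and cell wall compounds, had values of either sign. On a list of the 40 genes with a BGLU symbol in the reference, the authors' deposited tables list 4 for pwo1 (10%, against 4.38% of protein-coding genes), 3 lower and 1 higher, and 5 for crwn1 crwn2 (12.5%, against 6.91%), 4 lower and 1 higher. Of all listed genes, 57.5% were lower in pwo1 and 43.5% in crwn1 crwn2 in the authors' deposited tables. The 7 genes of the rule had 2 lower and 1 higher in pwo1 and 3 lower and 2 higher in crwn1 crwn2. DIN2, also named BGLU30, is outside the rule and, by its reference symbol, outside the list. It was higher in crwn1 crwn2 at 2.04 (edgeR p = 2.11e-08) in the authors' deposited table. TGG1 (BGLU38) and TGG2 (BGLU37), outside both for the same reason, were lower in pwo1, at -0.82 and -0.99 in the authors' deposited table. TGG2 was also lower in crwn1 crwn2, at -0.95. BGLU18, which releases abscisic acid from its glucose ester, was lower at -1.38 in pwo1 (edgeR p = 4.29e-08) and at -1.36 in crwn1 crwn2 (p = 4.07e-06) in the authors' deposited tables, although the wording of its description kept it outside the rule. BGLU33 was lower at -0.86 in pwo1 (p = 2.44e-05) and at -0.92 in crwn1 crwn2 (p = 0.000123) in the authors' deposited tables. Both genes thus had nearly the same value in each mutant.

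Other beta glucosidases were listed for 1 mutant each. BGLU28, a gene known for its response to sulfur deficiency, was lower in pwo1 by 2.42-fold (log2 -1.27, p = 0.000208) in the authors' deposited table, which gives BGLU42 0.51 (p = 0.000903). The neighbours BGLU7 and BGLU8 were lower in crwn1 crwn2, at -1.83 (p = 6.3e-08) and -0.92 (p = 4.24e-06) by edgeR in the authors' deposited table. They are 87.8% identical over 1084 bases, and they were the 2 of the 36 genes for which Cuffdiff differed by over 0.2, at -1.35 for BGLU7 and -0.49 for BGLU8 in the authors' deposited table. BGLU25 was higher in crwn1 crwn2 at 0.84 (p = 5.73e-05) in the authors' deposited table and overlaps a gene on the opposite strand. AT3G24180, described as a glucosylceramidase and not on the list of 40, was higher at 0.57 (p = 0.000108) in the authors' deposited table.

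The lipid-transfer family formed the largest group among the genes that matched by a family name. In pwo1, 8 of the 13 were listed in the authors' deposited table (61.5%, against 46.5% of the genes in either table), 7 higher and 1 lower (12.5% lower, against 57.5% of all listed). In crwn1 crwn2, 6 of the 13 were listed in the authors' deposited table (46.2%, against 72.6%), 4 higher and 2 lower (33.3% lower, against 43.5%). The 7 higher in pwo1 in the authors' deposited table ranged between 0.72 for AT4G00165 (edgeR p = 0.000475) and 1.90 for AT4G22460 (p = 8.12e-06). In crwn1 crwn2 the authors' deposited table has AT4G12490 higher by 15.9-fold (log2 3.99, p = 1.87e-13), AT5G55450 at 1.71 (p = 3.32e-17), AT4G12500 at 1.48 (p = 2.22e-06) and AT2G44290 at 1.12 (p = 2.48e-09). AT2G10940 was lower in crwn1 crwn2 at -0.71 (p = 0.000122) in the authors' deposited table. AT5G48490 was lower in both mutants in the authors' deposited tables, at -1.49 in pwo1 (p = 6.51e-19) and at -0.57 in crwn1 crwn2 (p = 0.00115). It is the gene with the smallest p-value of the 22 listed for pwo1.

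Several of these genes sit side by side on chromosome 4. The run of 13 protein-coding genes from AZI1, a gene of systemic defence priming, to AIR1, an auxin-induced gene of roots, contains 5 of the 51. In crwn1 crwn2 the authors' deposited table lists AZI1 (2.50), EARLI1 (3.26), AT4G12490 (3.99) and AT4G12500 (1.48), all higher and all in the first part of the run. In pwo1 the authors' deposited table lists EARLI1 (1.04), AT4G12510 (1.53), AT4G12520 (1.21), AT4G12545 (1.76) and AIR1 (1.22), all higher and, apart from EARLI1, in the later part. Genes of the run not listed for a mutant have no value there and are not shown to be unchanged. With 1239 and 1935 of the 2666 genes listed, most genes of the series were in a single table. The split along the run was not tested. AT4G12510 and AT4G12520 are 93.3% identical over 660 bases, and AT4G12545 is 89.4% identical to AIR1 over 671. AT4G12490 and AT4G12500 are 85.8% identical over 682 bases, and AZI1 and EARLI1 79% over 913. How reads were divided between such neighbours is uncertain. A similar pair elsewhere, AT5G46890 and AT5G46900 (94.5% over 526 bases), had 1.16 (p = 0.00134) and 1.46 (p = 0.000551) in pwo1 in the authors' deposited table.

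**Figure D3:**
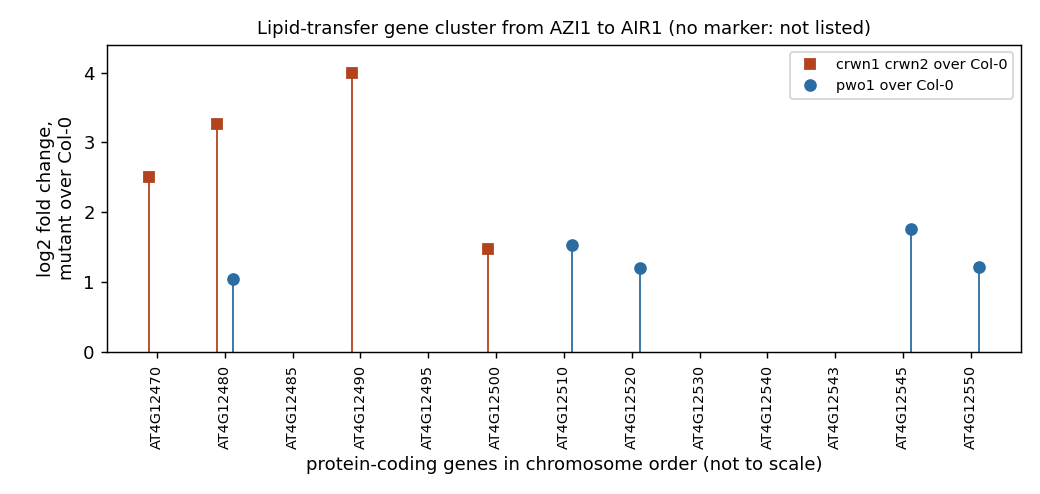
The plot gives the authors' edgeR log2 fold change, mutant over Col-0 (vertical axis), for the 13 protein-coding genes from AZI1 (AT4G12470) to AIR1 (AT4G12550) in chromosome order, with squares for crwn1 crwn2, circles for pwo1 and no marker where a gene was not listed. Squares stand on the left, from 1.48 to 3.99, and circles mostly on the right, from 1.21 to 1.76, with EARLI1 (AT4G12480) carrying both.

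The pectin methylesterase and inhibitor family sets the methyl esters of cell wall pectin. For crwn1 crwn2 the authors' deposited table lists all 8 (100%, against 72.6% of the genes in either table), 4 higher and 4 lower. That 50% lower is near the 43.5% of all listed genes and is no result about the family. AT2G26440 was higher at 1.32 (edgeR p = 8.78e-08), AT2G45220 at 1.06 (p = 0.000319) and PMEPCRF at 0.98 (p = 1.25e-08) in crwn1 crwn2 in the authors' deposited table, where AT1G23205 had 0.98 (p = 0.00234). AT2G01610 was lower at -1.27 (p = 0.000174) and AT1G62770 at -0.90 (p = 0.000494) in crwn1 crwn2 in the authors' deposited table, where PME61 had -1.10 (p = 0.0033). AT5G62350 was lower in both mutants in the authors' deposited tables, at -0.58 in pwo1 (p = 2.89e-05) and at -0.89 in crwn1 crwn2 (p = 5.59e-07). It was the only one of the 8 listed for pwo1 (12.5%, against 46.5% of the genes in either table).

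Among the genes matched by a remark, TMAC2, a negative regulator of abscisic acid responses, was higher in both mutants in the authors' deposited tables, by 1.99-fold in pwo1 (edgeR p = 1.12e-06) and by 2.15-fold in crwn1 crwn2 (p = 6.7e-06). WAK2, a wall-associated kinase, was lower in pwo1 by 2.03-fold (log2 -1.02, p = 2.3e-08) in the authors' deposited table. PBP1, a lectin that binds a beta glucosidase complex, had 0.62 in crwn1 crwn2 (p = 0.00385) in the authors' deposited table.

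**Figure D4:**
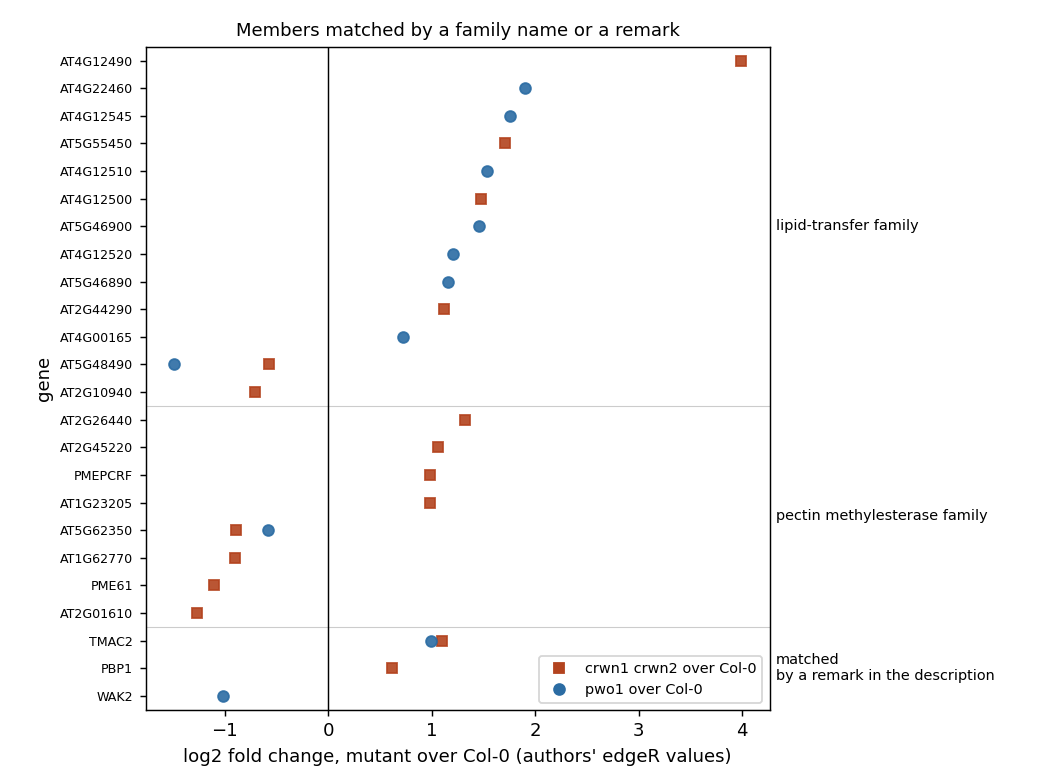
The plot gives the authors' edgeR log2 fold change, mutant over Col-0 (horizontal axis), for the 24 genes matched by a family name or a remark (rows, grouped), with squares for crwn1 crwn2 and circles for pwo1. Lipid-transfer genes lie mostly to the right of 0, up to 3.99, and pectin methylesterase genes lie on both sides, from -1.27 to 1.32.

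The p-values in the tables appear to be unadjusted. An upper bound, the Benjamini-Hochberg value over all 38094 genes of the reference, stayed under 0.05 in 19 of the 22 for pwo1 and in 30 of the 36 for crwn1 crwn2 in the authors' deposited tables. It was above 0.05 for A/N-InvB, AT4G12520 and AT5G46890 in pwo1, and for AMY3, SUS5, cwINV6, AT1G23205, PME61 and PBP1 in crwn1 crwn2. Of the 51 genes, 13 overlap another annotated gene (SBE2.1, BAM9, A/N-InvB, TPPA, BGLU25, AT3G24180, AT4G00165, AT4G12490, AT4G12545, AT4G22460, AT5G55450, PMEPCRF and WAK2), and the sources used here do not say whether counting used the strand.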

How the data were processed

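RNA-seq of 14-day-old seedlings was analysed from the authors' own comparisons, 1 table per mutant. Per the file headers, the deposited columns are the log2 fold change and p-value of edgeR and those of Cuffdiff. The submitters' processing notes name TopHat2 2.0.12, HTSeq 0.6.1, Cufflinks 2, Cuffdiff 2.2.1, edgeR 3.3, DiffBind 2, FastQC 0.10 and Trimmomatic 0.35, without roles, and build TAIR10. The sources used here do not give the normalization, count filters or listing threshold. The authors' listed p-values reached 0.00386 (edgeR) and 0.00455 (Cuffdiff) for pwo1, and 0.00585 and 0.0074 for crwn1 crwn2, so genes passed in both tools. Depth is unknown.

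No test was run. Genes were selected from the descriptions with Python 3.11.15 and pandas 2.3.3. The authors' edgeR values are the main ones. Benjamini-Hochberg bounds counted every gene of the reference as tested, and their calculation was tested on simulated data. Copies were searched among transcripts with BLAST 2.17.0. The reference was RefSeq TAIR10.1, which holds 1236 of 1239 and 1933 of 1935 identifiers. The rule for named genes was QQS, FUM2 and MIOX4, those in both tables, those changed at least 2-fold, and the 2 smallest p-values of the authors' edgeR test per role and table, while others complete a group. The genes, 10 pathway lists (153 genes) and 3 marker lists (22 genes) were chosen with earlier results of these data known. Other tools, thresholds and gene rules were tried.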

Additional observations from a re-analysis of the deposited data

How the results depend on the processing

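Counts of listed genes, those of starch breakdown included, were recomputed from the authors' deposited tables under other settings. These were p under 0.001 in both tools, the Benjamini-Hochberg bound under 0.05 and, for the 51 genes, removal of beta glucosidases. Under these no count moved by more than 1.5 times. Cuffdiff's fold change reversed no direction, and it could not change which genes were listed. Description alone could change nothing, because the 3 genes added by identifier also match by description. A 2-fold minimum left 13 genes in pwo1 (8 higher, 5 lower), 17 in crwn1 crwn2 (5 lower) and 0 of the 9 lower starch breakdown genes. Every alternative for starch breakdown was chosen after seeing the data, as was the removal of the 24 genes matched by a family name or remark, which left 11 in pwo1 (6 higher, 5 lower) and 20 in crwn1 crwn2 (8 higher), and the description rule alone left 3 lower genes of starch breakdown. These follow from the smaller sets. No paired analysis was possible because the tables hold no values per replicate, and no replicate could be left out for the same reason.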

Other observations

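Genes outside the rule whose symbols, not their descriptions, name a beta glucosidase or dark induction were chosen after their values were seen. The myrosinases TGG1 and TGG2, also named BGLU38 and BGLU37, release defence compounds from glucosinolates. They had log2 fold changes of -0.82 and -0.99 in pwo1 in the authors' deposited table. TGG2 had -0.95 in crwn1 crwn2, where its Benjamini-Hochberg bound was 0.0574. DIN2, linked to senescence and darkness, was 4.10-fold higher in crwn1 crwn2 in the authors' deposited table. DIN9, a phosphomannose isomerase, was higher there at 1.02 (p = 0.00129 in the authors' deposited table). ASN1, the dark-inducible asparagine synthase, was 2.66-fold lower in pwo1 (log2 -1.41, p = 6.55e-09) in the authors' deposited table, in which DIN10 was higher. BCE2, also named dark inducible 3, had 0.43 in pwo1, with a Benjamini-Hochberg bound of 0.107. ASN1, DIN10 and BCE2 each overlap a gene on the opposite strand. Dark-inducible genes thus had values of either sign, and no gene of these was tested as a group. E13L3, whose symbol names a beta-glucosidase-like protein, had -0.71 in crwn1 crwn2 in the authors' deposited table.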
